A study of Mus musculus with 3 samples.

Results

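The 33 genes described here act in the DNA damage response and in DNA repair. They were chosen by gene name, with earlier results of these data known, as were the gene lists set beside them. The members make up 33 of the 26840 genes with a symbol on the array, and 78 of its 56605 gene probes carry one of these names. The RNA came from RAW 264.7 cells, an established mouse macrophage line, and was labelled with Cy3 and hybridised to Agilent expression arrays, whose probes of 60 bases shine more brightly the more of their transcript is present. Each of 3 conditions had 1 array. Cells of the condition LPS received lipopolysaccharide, a bacterial cell wall component that TLR4 senses, at 50 ng/mL. Cells of CRL1505 + LPS and of CRL1506 + LPS were first kept for 24 h with 50000000 cells/mL of *Lacticaseibacillus rhamnosus* CRL1505 or *Lactiplantibacillus plantarum* CRL1506, washed, and then given the same LPS. The time of LPS is 12 h in the design text and 3 h in the sample descriptions. All of the macrophages had thus seen LPS, and no array of cells without LPS was analysed here.

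DNA damage is met by a division of labour. The kinases ATM and ATR sense broken or single-stranded DNA and signal through CHK2 and CHK1 to p53 and to the machinery of the cell cycle, while separate sets of enzymes mend the different lesions: homologous recombination and end joining for double-strand breaks, the Fanconi anemia pathway for crosslinks, and mismatch, base excision and nucleotide excision repair for altered bases. Many genes of recombination are transcribed mostly in dividing cells, in which a sister chromatid can serve as template, whereas end joining works throughout the cell cycle. In macrophages, reactive oxygen and nitrogen species made after stimulation are a known source of DNA lesions.

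With 1 array a condition there was no replicate check, so no test or p-value is given and a ratio describes 2 hybridisations. Slide and scan were shared by LPS and CRL1506 + LPS and differed for CRL1505 + LPS, so that the CRL1505 strain and its slide cannot be told apart. Between 48.5% and 55.3% of the 59305 gene spots of an array were well above background, and the 75th percentile of their signal ran from 517 on the CRL1505 + LPS array to 743 on the LPS array. Of the macrophage markers on the array, 8 of 9 were well above background on all arrays. None of the 4 fibroblast or the 4 epithelial markers was, while 1 of 3 B cell and 3 of 4 T cell markers (*Cd3e*, *Cd3d* and *Cd4*) were.

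A level is given as the log2 intensity of a gene's brightest probe minus the 75th percentile of its array, so that 0 stands for that percentile. A ratio is the difference of 2 levels. Genes were called at 2-fold, which is 1 on this scale. In CRL1505 + LPS over LPS the log2 ratio had a median SD of 0.048 over repeated spots of a probe, and of 0.23 between the probes of a gene. The median SD between probes was 0.22 in CRL1506 + LPS over LPS and 0.32 in CRL1505 + LPS over CRL1506 + LPS. All 33 brightest probes were well above background on the 3 arrays, none had an outlier spot, and so no member was lost to a filter.

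The members were mostly lower on the CRL1505 + LPS array than on the LPS array. In CRL1505 + LPS over LPS, 12 of the 33 members (36.4%) were at least 2-fold lower, where 8.41% of all 15603 genes compared were. Another 2 members (6.06%) were at least 2-fold higher, where 9.93% of all genes were, and both of these were read by probes with a simple repeat, described below. The median log2 ratio of the members was -0.72 (quartiles -1.23 and -0.25) beside 0.06 (quartiles -0.32 and 0.41) over all genes measured on both arrays. The members lay below that median of all genes in 26 of 33 cases. The count was also 26 with quantile normalization, cyclic loess, normexp background correction and the authors' normalized log2 table. The other scalings tried move all genes of an array by the same amount, so they could not change this count. The count past 2-fold on the lower side depended on the scaling, with 7 members after a shift by the array median and 21 after scaling to spike-in probes. In CRL1506 + LPS over LPS no member reached 2-fold in either direction, where 5.67% of all 16279 genes compared were at least 2-fold higher and 3.53% lower. The median log2 ratio of the members was -0.17 there, beside -0.06 over all genes.

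**Figure D1:**
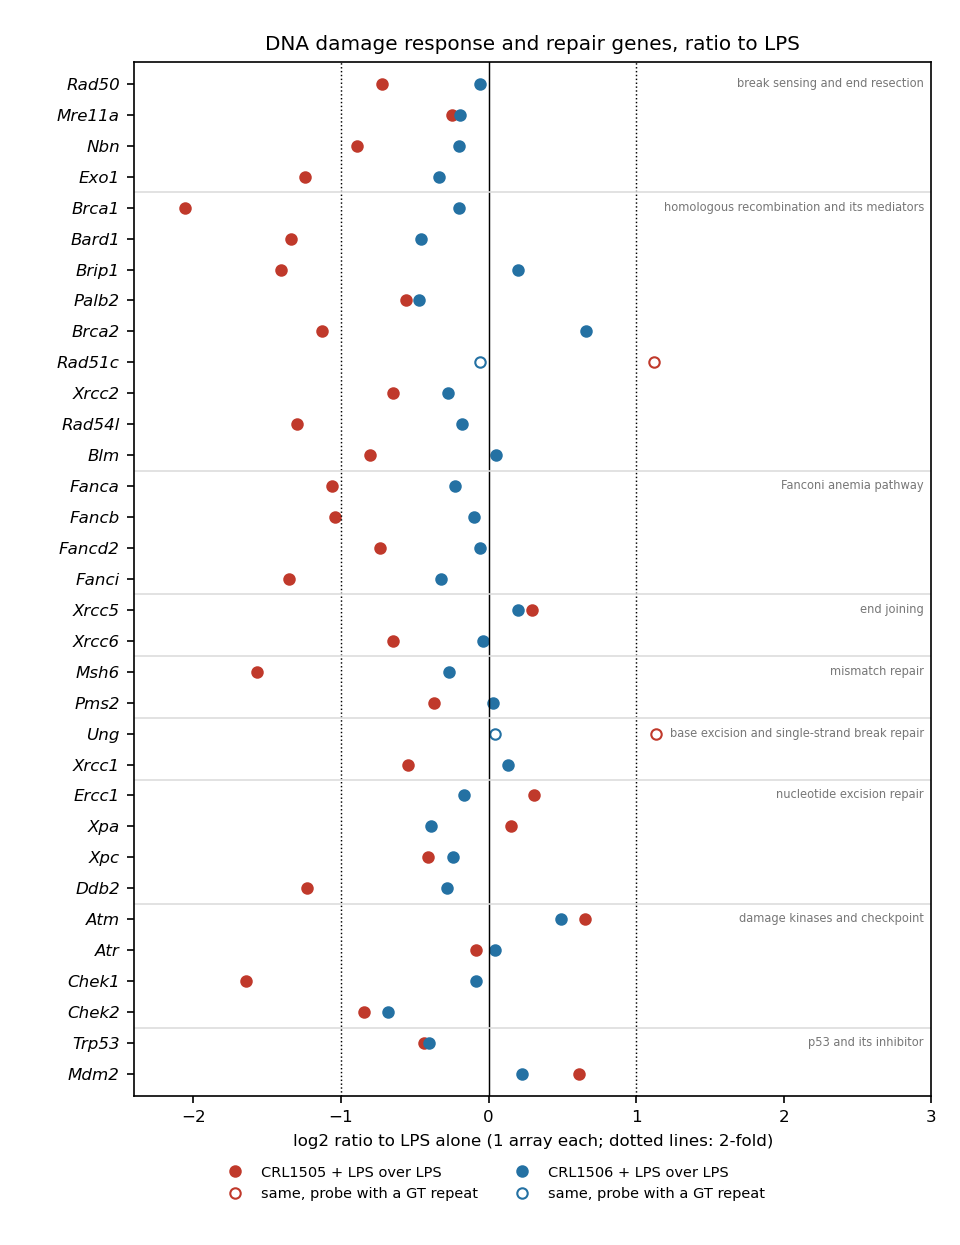
Log2 ratio to LPS alone (x axis) of the 33 genes (y axis), grouped by role, for CRL1505 + LPS in red and CRL1506 + LPS in blue, with 1 array a condition and dotted lines at 2-fold. Open circles mark *Rad51c* and *Ung*, whose probes hold a GT repeat; 12 red points lie past the left dotted line, and no blue point lies past either.

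The genes that sense and trim broken DNA ends had a median log2 ratio of -0.81 in CRL1505 + LPS over LPS, with 1 of 4 at least 2-fold lower. *Exo1*, a nuclease that resects ends and also serves mismatch repair, had levels of 2.80 in LPS, 1.56 in CRL1505 + LPS and 2.47 in CRL1506 + LPS. The CRL1505 + LPS array was the lowest, 2.37-fold below LPS. The MRE11 complex holds and tethers the ends, and its 3 genes were nearer to LPS. Log2 ratios in CRL1505 + LPS over LPS were -0.89 for *Nbn*, -0.72 for *Rad50* and -0.25 for *Mre11a*, and *Nbn* was the member closest to the 2-fold line from outside. On the CRL1506 + LPS array the log2 ratios of the same genes to LPS lay between -0.20 and -0.06.

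Homologous recombination held the member with the lowest ratio. *Brca1*, whose product steers a break towards recombination, had levels of 0.23 in LPS, -1.83 in CRL1505 + LPS and 0.02 in CRL1506 + LPS. The CRL1505 + LPS array was thus 4.16-fold below LPS, and the CRL1506 + LPS array was 1.15-fold below it. A second *Brca1* probe, nearer the start of the gene, gave -1.35, -1.56 and -1.12 in the same order, a log2 ratio of -0.21 for CRL1505 + LPS over LPS. Both probes were lower in CRL1505 + LPS, and only the first was so by 2-fold. Their middle 30 bases (bases 16 to 45) are shown because the size of the *Brca1* ratio rests on which of them is read. The first lies at chr11:101350409-101350468 and the second at chr11:101386419-101386478 of mm9, both on the minus strand:
Brca1, brightest probe: atagcttatgagcagtgtatctgttgtagc
Brca1, second probe: agaacaggaacagagcaacttgaaacacgc

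The partners of BRCA1 were lower as well. *Bard1*, which forms a ubiquitin ligase with BRCA1, had levels of 2.40, 1.06 and 1.94 in LPS, CRL1505 + LPS and CRL1506 + LPS. A second *Bard1* probe was not well above background in CRL1505 + LPS and gave a log2 ratio of -2.58 there as an upper limit, against the background level of that array. *Brip1*, a helicase that binds BRCA1, had levels of -1.75, -3.16 and -1.56, and its 2 probes gave log2 ratios of -1.40 and -1.24 in CRL1505 + LPS over LPS. In both genes CRL1505 + LPS was the lowest array. *Palb2*, the bridge between BRCA1 and BRCA2, was 1.47-fold lower in CRL1505 + LPS and 1.38-fold lower in CRL1506 + LPS by its brightest probe. Its weaker probes disagreed in CRL1506 + LPS over LPS, with log2 ratios of 1.59 for one made to another transcript model and -0.19 for another, and the mean over the 3 probes was 0.31.

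*Brca2*, a mediator of recombination, differed between the strains more than it did from LPS. Its levels were 0.11 in LPS, -1.02 in CRL1505 + LPS and 0.77 in CRL1506 + LPS, so LPS lay between the strains and the lactobacilli arrays were 3.46-fold apart. The other *Brca2* probes had log2 ratios of -0.97 and -0.58 in CRL1505 + LPS over LPS and of 0.17 and 0.58 in CRL1506 + LPS over LPS. All 3 probes gave the same order of arrays. *Rad54l*, a motor protein of recombination, had levels of 0.74, -0.56 and 0.55 by its brightest probe. One further probe of it, made to another transcript model, gave a log2 ratio of 0.15 for CRL1505 + LPS over LPS, and another gave -0.50. *Blm*, the helicase that dissolves recombination intermediates, and *Xrcc2*, a further recombination gene, had log2 ratios of -0.81 and -0.64, short of 2-fold. Weaker *Blm* probes gave -0.97 and -0.04.

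*Rad51c*, a recombination gene, and *Ung*, the glycosylase that cuts uracil out of DNA, were the 2 members at least 2-fold higher in CRL1505 + LPS. The level of *Rad51c* was 6.10 in LPS, 7.22 in CRL1505 + LPS and 6.04 in CRL1506 + LPS. *Ung* had levels of 6.43, 7.57 and 6.48. In both, LPS and CRL1506 + LPS were nearly level, and CRL1505 + LPS was 2.18-fold and 2.20-fold above LPS. The probes behind these values carry runs of the dinucleotide GT, in capitals in the 30-base stretches shown here, which count 16 bases in *Rad51c* and 34 in *Ung* (of which 24 fall in the stretch). The *Rad51c* probe lies at chr11:87190997-87191056 on the minus strand and the *Ung* probe at chr5:114588731-114588790 on the plus strand of mm9:
Rad51c, bases 1 to 30 of the probe: TGTGTGTGTGTGTGTGgtggtggtggtgtt
Ung, bases 21 to 50 of the probe: ttcaaaGTGTGTGTGTGTGTGTGTGTGTGT

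Such runs went with the same ratio in unrelated genes. The array holds 71 gene probes with at least 8 GT units in a row, each for a different gene name. Of these, 70 were well above background on all arrays, and all 70 were higher in CRL1505 + LPS than in LPS, with a median log2 ratio of 1.10 (quartiles 0.90 and 1.21). By the same measure 67.1% of them were at least 2-fold higher, beside 7.25% of all gene probes. The 1513 other gene probes with a level over 5 in LPS and well above background on all arrays had a median log2 ratio of 0.13, and 2.84% of them were at least 2-fold higher. The part of the repeat in the values of *Rad51c* and *Ung* was not tested. The repeat probes had a median of -0.12 in CRL1506 + LPS over LPS. The values of *Rad51c* and *Ung* lay within the quartiles of the repeat probes. The second *Rad51c* probe, without such a repeat, passed background on the CRL1505 + LPS array alone, at least 1.41-fold above LPS, and *Ung* had no other probe. The level of that *Rad51c* probe was -3.99 in CRL1505 + LPS, close to the lowest level well above background there, -4.12. With repeat probes left out, a choice made after the values were seen, CRL1505 + LPS had 12 members at least 2-fold below LPS and 0 above.

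All 4 members that belong to the Fanconi anemia pathway were lower in CRL1505 + LPS, with a median log2 ratio of -1.05, and 3 of them were so by at least 2-fold. FANCI and FANCD2 form the clamp that the core complex ubiquitinates at a crosslink. *Fanci* had levels of 0.49 in LPS, -0.86 in CRL1505 + LPS and 0.17 in CRL1506 + LPS. A second *Fanci* probe was well above background in LPS but not in CRL1505 + LPS, at least 2.10-fold lower there. *Fancd2* was 1.66-fold lower and stayed short of 2-fold. The core complex genes *Fanca* and *Fancb* were 2.09-fold and 2.06-fold lower, and *Fancb*, at a log2 ratio of -1.04, was the member closest to the 2-fold line from inside. A weaker *Fanca* probe gave -0.38. Log2 ratios of these 4 genes to LPS in CRL1506 + LPS lay between -0.32 and -0.06.

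**Figure D2:**
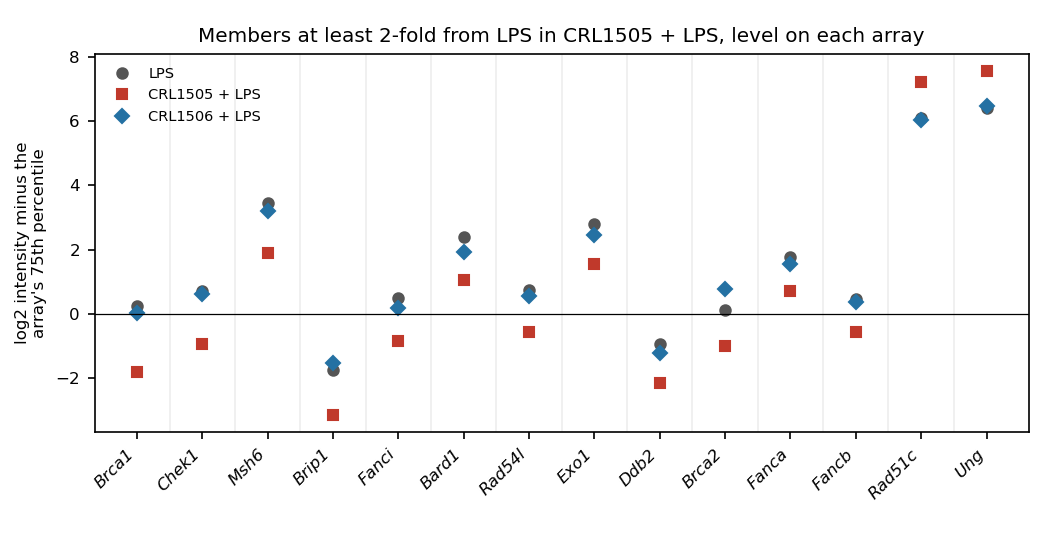
Level (y axis, log2 intensity minus the 75th percentile of the array) of the 14 members at least 2-fold from LPS in CRL1505 + LPS, with 1 point for each array: LPS as grey circles, CRL1505 + LPS as red squares and CRL1506 + LPS as blue diamonds. The red square is the lowest point in 12 genes and the highest in *Rad51c* and *Ung*, the genes read by repeat probes.

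The excision and end joining genes were divided. *Msh6*, which recognises mismatched bases, had levels of 3.47 in LPS, 1.90 in CRL1505 + LPS and 3.20 in CRL1506 + LPS, which puts CRL1505 + LPS 2.97-fold below LPS. *Pms2*, which nicks the strand in the next step of mismatch repair, was 1.29-fold lower. *Ddb2*, the sensor of ultraviolet lesions, had levels of -0.94, -2.17 and -1.22. Its 2 probes gave log2 ratios of -1.23 and -0.90 in CRL1505 + LPS over LPS. The other nucleotide excision genes remained near LPS. Their log2 ratios in CRL1505 + LPS over LPS were -0.41 for the lesion sensor *Xpc*, 0.15 for the damage verifier *Xpa* and 0.31 for the nuclease subunit *Ercc1*. A weaker *Xpc* probe gave 0.02 there. In CRL1506 + LPS over LPS the brightest *Xpc* probe gave -0.24 and the weaker one 0.10. The end joining pair that encodes the Ku heterodimer split, with *Xrcc5* (Ku80) at 0.29 and *Xrcc6* (Ku70) at -0.65. *Xpa*, *Ercc1* and *Xrcc5* were below 0 when the arrays were scaled to spike-in probes. *Xrcc1*, the scaffold of single-strand break repair, was at -0.55. None of the 7 genes *Pms2*, *Xpc*, *Xpa*, *Ercc1*, *Xrcc5*, *Xrcc6* and *Xrcc1* was 2-fold from LPS on either lactobacilli array.

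Among the kinases, the gene of the replication checkpoint kinase stood alone. *Chek1* had levels of 0.71 in LPS, -0.94 in CRL1505 + LPS and 0.62 in CRL1506 + LPS, a 3.13-fold difference between CRL1505 + LPS and LPS. The second *Chek1* probe had levels of -0.75, -1.95 and -1.11. Both probes were over 2-fold lower in CRL1505 + LPS, with log2 ratios of -1.64 and -1.20, and *Brip1* was the other member in which all of several measured probes were. The *Chek1* probes lie at chr9:36531507-36531566 and chr9:36517425-36517484 of mm9 on the minus strand, and *Msh6*, next to *Chek1* in the order of ratios, is read by a single probe at chr17:88390143-88390202 on the plus strand. Bases 16 to 45 are shown for comparison with the repeat probes, since none of these 3 stretches holds a run of GT units:
Chek1, brightest probe: agacatgaagcgggccatagactgtccaga
Chek1, second probe: atgttaatgtatgtactgtattttcagttt
Msh6: gctgagctgacttttgaaaaaggtggtaaa

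The upstream kinase genes did not share this. *Atr*, which activates CHK1 at stalled forks, had levels of 2.63, 2.54 and 2.67, nearly the same on the 3 arrays. *Atm*, which responds to double-strand breaks, had levels of -0.78 in LPS, -0.13 in CRL1505 + LPS and -0.29 in CRL1506 + LPS, and so was lowest in LPS. Its weaker probe gave log2 ratios of 1.07 in CRL1505 + LPS and 0.36 in CRL1506 + LPS. *Chek2*, the kinase downstream of ATM, had levels of -2.88, -3.73 and -3.56, lower on both lactobacilli arrays, and its log2 ratio of -0.68 in CRL1506 + LPS over LPS was the lowest of the members there. Its only probe was dim: the lowest levels well above background were -4.12 in CRL1505 + LPS and -4.40 in CRL1506 + LPS. With normexp background correction, the *Chek2* log2 ratios to LPS were -0.19 in CRL1505 + LPS and -0.32 in CRL1506 + LPS. *Trp53*, which encodes p53, was 1.35-fold lower in CRL1505 + LPS and 1.32-fold lower in CRL1506 + LPS. *Mdm2*, the ubiquitin ligase that removes p53, was 1.53-fold and 1.17-fold higher by its brightest probe, while a weaker probe gave log2 ratios of 0.10 and 0.76.

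**Figure D3:**
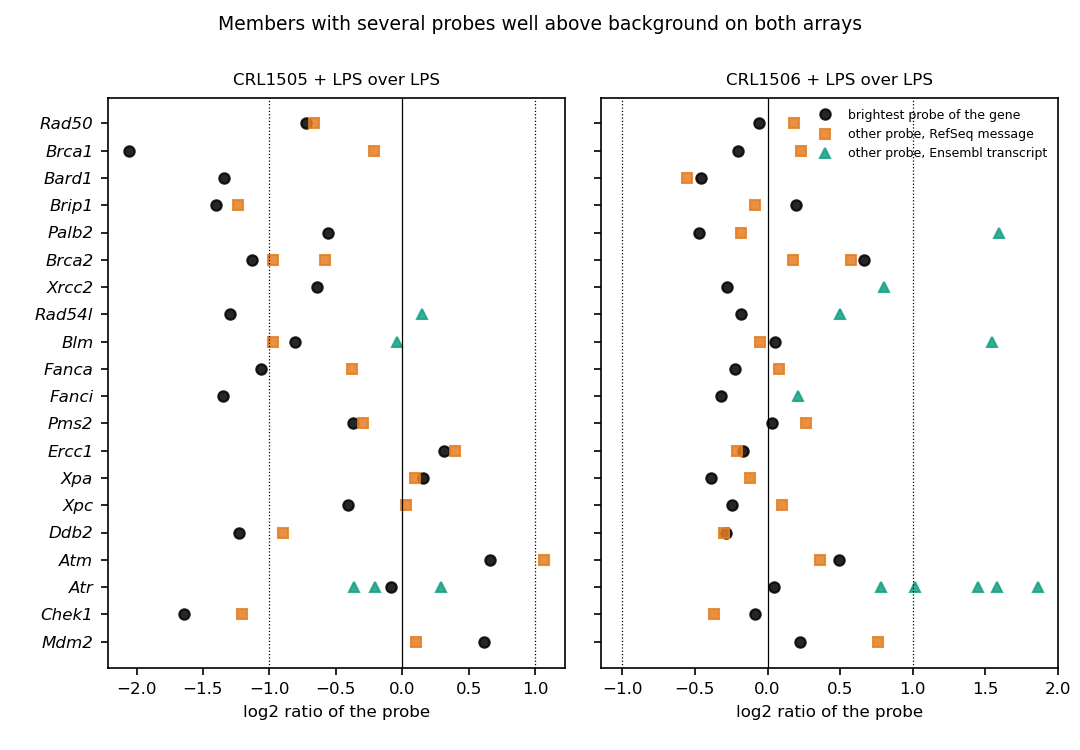
Log2 ratio to LPS (x axis) of each probe of the members with several probes well above background, in CRL1505 + LPS on the left and CRL1506 + LPS on the right. Circles are the brightest probe of a gene, squares other probes to RefSeq messages and triangles other probes to Ensembl transcripts; the *Brca1* and *Rad54l* probes differ on the left, and the *Atr* triangles lie apart from the *Atr* circle on the right.

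Probes of the same gene were compared where the gene allowed it. Of the 14 members past 2-fold in CRL1505 + LPS over LPS, 7 had several probes well above background on both arrays. In 6 of these all probes had the same sign, the exception being *Rad54l*, and in 2 all probes were past 2-fold. For *Atr*, 5 weaker probes gave log2 ratios from 0.78 to 1.86 in CRL1506 + LPS over LPS, whereas the brightest gave 0.04.

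The lactobacilli arrays were also set directly against each other. In CRL1505 + LPS over CRL1506 + LPS, 7 members were at least 2-fold lower and 2 were higher, where 7.47% of all 15780 genes compared were lower and 9.02% higher. The median log2 ratio of the members was -0.67, and over all genes 0.09. The lowest were *Brca1*, *Brca2*, *Brip1*, *Chek1*, *Msh6*, *Rad54l* and *Fanci*, from 3.62-fold to 2.04-fold lower in CRL1505 + LPS. *Brca1*, *Brca2* and *Chek1* were past 2-fold under each alternative setting that was tried, none of which read the weaker probes alone. Weaker probes gave log2 ratios of -0.44 for *Brca1*, -0.84 for *Chek1* and -0.35 for *Rad54l*. In 5 of the members past 2-fold several probes were measured, all of the same sign, and in 2 all probes were past 2-fold. With a shift by the array median *Msh6* was at -0.81, *Rad54l* at -0.62 and *Fanci* at -0.53. *Brip1* was at -0.89 with normexp background correction. The 2 higher ones were again *Rad51c* and *Ung*, read by the repeat probes. Over the 3 arrays CRL1505 + LPS had the lowest level in 26 of the 33 members and the highest in 7.

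Other genes of these pathways were taken as 7 lists of 113 genes, of which 111 could be compared. Of these, 14 genes (12.6%) were at least 2-fold lower in CRL1505 + LPS over LPS and 2 (1.80%) higher, where 8.41% of all genes were lower and 9.93% higher. Their median log2 ratio was -0.21. For CRL1506 + LPS the counts were 0 lower and 1 higher, beside 3.53% and 5.67% of all genes, with a median of -0.14. Recombination and Fanconi anemia genes had the lowest median of the 7 lists in CRL1505 + LPS over LPS, at -0.45, with 5 of 30 lower and 1 higher. *Xrcc3*, which serves recombination, was 2.94-fold lower, and *Rmi2*, a partner of BLM, was 2.61-fold higher. The *Rmi2* probe was made to an Ensembl transcript and was dim, with levels of -3.31 in LPS and -1.93 in CRL1505 + LPS. The end joining list had the highest median, 0.15, with 1 of 11 lower and 1 higher. Its lowest gene was *Parp1*, a sensor of DNA breaks, 2.47-fold lower.

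*Dclre1c*, which encodes the end-opening nuclease Artemis, was the only gene compared of these 7 lists that was past 2-fold in both strains. Its levels were 0.52 in LPS, 2.09 in CRL1505 + LPS and 1.93 in CRL1506 + LPS. Both lactobacilli arrays were higher than LPS, by 2.97-fold and 2.66-fold.

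Excision and signaling lists had medians between -0.32 and -0.09 in CRL1505 + LPS over LPS. Mismatch repair had 1 of 6 genes lower, and *Msh3* had its highest log2 ratio, 0.14. Base excision repair had 3 of 17 lower, among them *Lig1*, the ligase that also joins Okazaki fragments, at levels of 4.68, 2.91 and 4.29 in LPS, CRL1505 + LPS and CRL1506 + LPS. *Neil1*, a glycosylase for oxidised bases, was 1.46-fold higher. Nucleotide excision repair had 1 of 17 lower, which was *Rpa1*, a subunit of the protein that coats single-stranded DNA, at 2.35-fold, while *Gtf2h3*, a TFIIH subunit, was 1.72-fold higher. Damage signaling had 3 of 18 lower. *Clspn*, the adaptor through which ATR activates CHK1, had levels of 0.00 in LPS, -2.25 in CRL1505 + LPS and 0.03 in CRL1506 + LPS, while *Rad9a*, a clamp subunit, was 1.38-fold higher in CRL1505 + LPS. Damage tolerance and direct reversal had 0 of 12 past 2-fold in either direction, and ranged from *Polh*, a translesion polymerase, 1.99-fold lower, to *Alkbh3*, a demethylase of DNA, 1.15-fold higher.

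With CRL1506 + LPS, every gene of the 111 compared other than *Dclre1c* stayed within 2-fold of LPS. The lowest and highest genes of the lists were *Fancf* (log2 ratio -0.44) and *Rmi2* (0.43) for recombination and Fanconi anemia, *Pms1* (-0.41) and *Msh3* (0.46) for mismatch repair, *Mbd4* (-0.41) and *Neil2* (0.40) for base excision, and *Rpa2* (-0.56) and *Gtf2h1* (0.52) for nucleotide excision. For damage signaling they were *H2afx* (-0.70) and *Rad9a* (0.64), and for damage tolerance *Mad2l2* (-0.43) and *Polk* (0.30). *Parp1* was the lowest end joining gene, at -0.67.

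Targets of p53 had no common direction. Set against LPS, 4 of 21 in CRL1505 + LPS were at least 2-fold lower and 1 higher, the latter a lower bound, beside 8.41% and 9.93% of all genes. Their median log2 ratio was 0.13. For CRL1506 + LPS, 1 of 20 was lower and 2 were higher, beside 3.53% and 5.67% of all genes, with a median of -0.23. *Sesn1*, a stress-induced regulator of growth signaling, was past 2-fold in both, with levels of 0.09 in LPS, -2.24 in CRL1505 + LPS and -1.17 in CRL1506 + LPS. *Cdkn1a*, which encodes the cell cycle inhibitor p21, had levels of 4.40, 4.98 and 3.87, within 2-fold on both sides of LPS. *Aen*, a nuclease of apoptosis, was the highest measured target in CRL1505 + LPS, at a log2 ratio of 0.95, and *Mdm4*, which restrains p53, in CRL1506 + LPS, at 1.91. The *Mdm4* value comes from a probe made to an Ensembl transcript, a kind that is compared with RefSeq probes in the last section.

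Most genes listed for DNA replication and proliferation were lower on the same array as most of the members. In CRL1505 + LPS over LPS, 18 of the 22 S phase and proliferation genes compared were at least 2-fold lower, where 8.41% of all genes were. Their median log2 ratio was -1.37. The lowest was *Tk1*, thymidine kinase, with levels of 3.81 in LPS, 0.77 in CRL1505 + LPS and 3.23 in CRL1506 + LPS, and the highest *Tyms*, thymidylate synthase, at a log2 ratio of 0.71. On the CRL1506 + LPS array, 0 of 23 were past 2-fold, where 3.53% of all genes were lower and 5.67% higher. The median there was -0.33, from *Cdk1*, the mitotic kinase, at -0.76 to *Tyms* at 0.22. The part of these genes in the values of the repair genes was not tested. In bulk RNA, fewer dividing cells and less RNA in each dividing cell cannot be told apart.

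**Figure D4:**
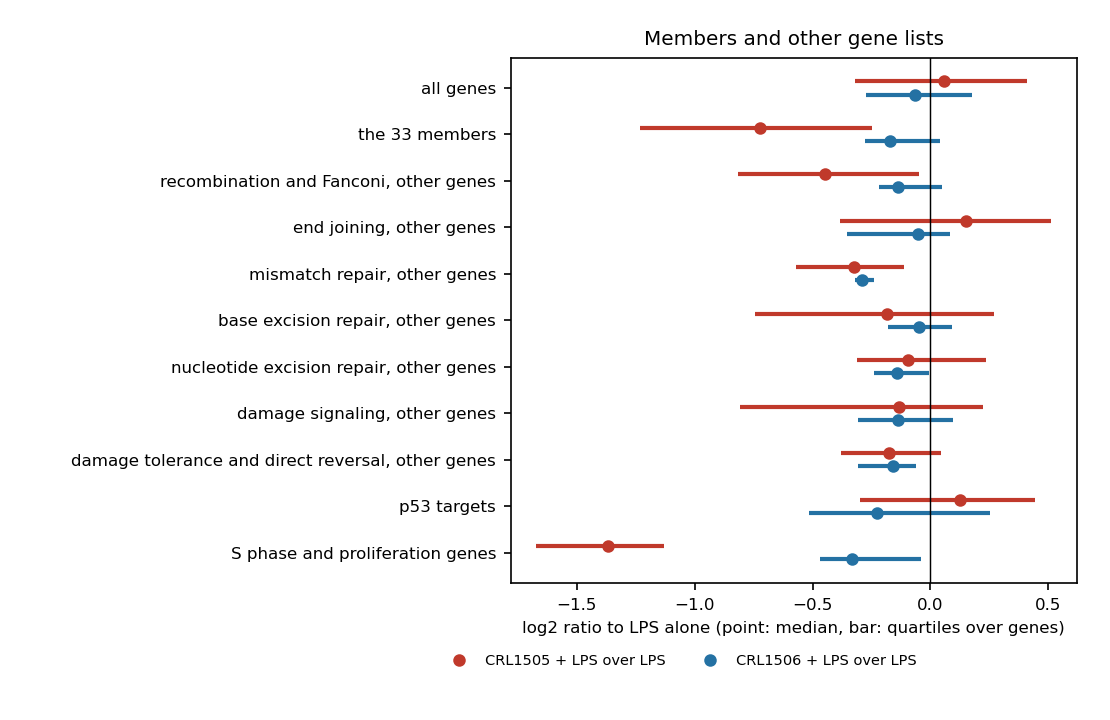
Median (point) and quartiles (bar) of the log2 ratio to LPS over the genes of each list (x axis), for CRL1505 + LPS in red and CRL1506 + LPS in blue. In red, the S phase and proliferation genes lie lowest at -1.37, the 33 members next at -0.72 and the other recombination and Fanconi anemia genes at -0.45, beside 0.06 for all genes.

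Promoters of the members were searched for the site of E2F factors, which drive S phase genes. The search was made because most members and most S phase genes were lower on the same array. Letters searched on both strands were TTTCCCGC, TTTGGCGC and TTTCGCGC, from 250 bases before to 50 after the start in RefSeq on GRCm38.p6. Of all 32851 promoters in the table, 1.84% held a match. A promoter was listed for 26 of the 33 members, and 6 of these held a match, in 7 of the 28 promoters listed for the members. Among members past 2-fold on the lower side in CRL1505 + LPS these were *Bard1*, *Brca2* and *Msh6*, which is 3 of the 10 with a promoter listed. The others were *Chek2*, *Xrcc6* and *Rad51c*, 3 of 16. A match is a description of the letters and does not show a bound site. The stretches around 4 matches that lie before the start are shown with the match in capitals, 5′ to 3′ on the strand of the gene. They lie at chr1:71103134-71103221 on the minus strand for *Bard1*, and on the plus strand at chr5:150522413-150522500 for *Brca2*, chr5:110839791-110839878 for *Chek2* and chr15:82016283-82016368 for *Xrcc6*:
Bard1: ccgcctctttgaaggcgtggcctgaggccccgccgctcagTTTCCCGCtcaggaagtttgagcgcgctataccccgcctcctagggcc
Brca2: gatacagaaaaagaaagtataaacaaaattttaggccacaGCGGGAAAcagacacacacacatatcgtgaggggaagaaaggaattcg
Chek2: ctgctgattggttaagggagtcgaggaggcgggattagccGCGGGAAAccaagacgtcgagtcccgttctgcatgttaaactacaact
Xrcc6: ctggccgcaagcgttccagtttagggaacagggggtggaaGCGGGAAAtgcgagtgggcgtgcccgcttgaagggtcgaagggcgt

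The matches begin 209 bases before the start in *Bard1*, 168 in *Brca2*, 152 in *Chek2* and 46 in *Xrcc6*. The *Msh6* match lies just after the start, in chr17:87975054-87975083 on the plus strand, within 30 bases that read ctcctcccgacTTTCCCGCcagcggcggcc. The 2 genes of this set closest to the LPS array in CRL1505 + LPS were *Xrcc6* and *Chek2*, with log2 ratios of -0.65 and -0.84. A match was thus not limited to the members past 2-fold. *Rad51c*, whose matches lie at or just after a start and are not shown, had a log2 ratio of 1.12 by its repeat probe.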

How the data were processed

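Cy3-labelled RNA of RAW macrophages was hybridised to 1 array for each of LPS, CRL1505 + LPS and CRL1506 + LPS. The authors deposited the intensity of every spot as processed by Feature Extraction (version 12.0.3.1 in the file headers, another in the design text), with local background subtracted and no scaling between arrays. The authors also deposited a table of normalized log2 values, used as an alternative since its normalization setting is not given in the sources used here. Every column of values was used or mapped. From each log2 processed signal the 75th percentile over its array's gene spots was subtracted, outlier spots were left out (241 to 467 an array), repeated spots were averaged and a gene was read by its brightest probe. A probe not well above background on 1 array of a pair gave a bound, taken against the lowest signal well above background, and a bound on the wrong side of 1 or a probe dim on both arrays was not compared. Calls used the 2-fold threshold of the methods; their t-test could not be run on single arrays, nor could a replicate be left out or paired.

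The members and lists were chosen with earlier results of these data known. All 33 members are named, and of every other list, for each strain, the genes with the largest rise and fall measured on both arrays, with any gene past 2-fold in both strains, except 1 gene of the mismatch repair list, which is not reported here; *Cdkn1a*, among those named besides, was chosen after its values were seen, as was the search for GT repeats. Alternatives were other scalings, background correction, filters, probes and thresholds, with removal of repeat probes and of a trend on probe GC content added after seeing the data. Python 3.11.15 (pandas 2.3.3, NumPy 2.4.6) and R 4.3.3 with limma 3.58.1 were used, and the steps were tested on simulated data. Probe positions are those of the files (mm9).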

Additional observations from a re-analysis of the deposited data

How the results depend on the processing

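No paired analysis was possible because each condition had 1 array. In CRL1505 + LPS over LPS the median log2 ratio of the members ranged from -1.23 to -0.43 over 14 alternatives. Its difference from the median of all genes ranged from -0.86 to -0.60, with 26 members below that median in each. A shift of a whole array could not change this difference or count. Changed filters on dim, outlier or uneven spots left the median of the members at -0.72. Shifting by the median gave -0.43 with 9 members past 2-fold, and scaling to spike-in probes gave -1.23 with 21 lower and 0 higher; these scalings moved the median of all genes to 0.35 and -0.45. The deposited log2 table gave 9 members past 2-fold, 1.5-fold gave 23 and 4-fold gave 1, *Brca1*. *Brca1*, *Bard1*, *Fanci*, *Msh6* and *Chek1* were past 2-fold in each alternative. With the mean over probes *Rad54l* was at -0.55 and *Fanca* at -0.72, and with normexp *Brip1* was at -0.74 and *Ddb2* at -0.78. With the median shift *Exo1* was at -0.95, *Brca2* at -0.83 and *Fancb* at -0.74. *Xrcc5*, *Ercc1* and *Xpa* were below 0 with spike-in scaling, and *Mre11a* and *Atr* above 0 with the median shift. Without repeat probes *Ung* had no value and *Rad51c* a bound of 0.49. For CRL1506 + LPS over LPS the count of 0 became 1 with the mean over probes (*Atr*, log2 ratio 1.12) and 2 at 1.5-fold. In CRL1505 + LPS over CRL1506 + LPS the median was -0.17 with the median shift and -1.07 with spike-in scaling, and the count of 9 became 18 with spike-in scaling, 5 in the deposited table, 20 at 1.5-fold and 0 at 4-fold. No member past 2-fold reversed under an alternative that gave it a value. The causes of these changes were not tested. The number of arrays limited the precision, and dim probes gave bounds only.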

Other observations

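Probes made to Ensembl transcripts and probes made to RefSeq messages of the same gene gave different ratios in CRL1506 + LPS. Over 1854 genes with both kinds measured, the Ensembl probes were higher in CRL1506 + LPS over LPS in 73.7%, with a median difference of 0.42 on the log2 scale. Among the repair genes this held for 6 of 6 genes, with a median difference of 1.24. *Atr* was one of them: its RefSeq probe had a log2 ratio of 0.04 and its Ensembl probes from 0.78 to 1.86. *Blm* had an Ensembl probe at 1.55 beside its brightest probe at 0.05, and *Palb2* had one at 1.59 beside -0.47. For CRL1505 + LPS over LPS the Ensembl probes were higher in 52.2% of 1547 genes, with a median difference of 0.03, and in 2 of the 3 repair genes with both kinds measured, with a median difference of 0.85. This comparison was made after the values were seen, and what the Ensembl probes of these genes detect was not tested.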
